A study of Mus musculus with 4 samples.

Results

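The replication-dependent histone genes of the mouse are described here, by class, in the cytosolic RNA of macrophages. A gene was a member if its name began with Hist1h, Hist2h, Hist3h or Hist4h and it had at least 1 protein-coding transcript in the annotation. Of 55536 annotated genes, 67 met this rule: 6 of class H1, 18 of H2A, 18 of H2B, 12 of H3 and 13 of H4. Another 3 genes of the name pattern had no coding transcript and were not members. The rule used names and annotation only, not measured values.

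The samples were 4 libraries of total RNA, depleted of ribosomal RNA, prepared from C57BL/6J mouse macrophages that had been differentiated in culture from bone marrow. Labelled biological replicates 1 to 4, they form 1 group. Its cells received lipid A at 100 ng/ml over 12 h, spent the next 12 h without it after a wash, and were exposed again to 100 ng/ml during the last 15 min before the cytosol was separated. Lipid A, the membrane anchor of lipopolysaccharide, is sensed by Toll-like receptor 4. No untreated library was among the samples used here, so no value is a response to lipid A, and levels were compared with a fixed level and with one another. The labels name 1 donor record for the 4 libraries and give no age or sex of the animals, so the p-values measure the spread between these libraries.

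Replication-dependent histones package newly made DNA, and most of their mRNA is made while DNA is copied. The core histones H2A, H2B, H3 and H4 form the nucleosome, and H1 binds the linker DNA between nucleosomes. Their mRNAs normally carry no poly(A) tail: they end just after a stem-loop that the stem-loop binding protein Slbp holds during 3′ end formation, translation and decay. Some of these genes are also known to give longer, polyadenylated mRNA in cells that have stopped dividing. Because the libraries were made from ribosomal-RNA-depleted total RNA, both forms could in principle be sequenced.

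The stem-loop was searched for after the stop codon of each member's lowest-numbered coding transcript, as a hairpin of 6 paired bases and a loop of 4. Most bases of the stem and some of the loop were fixed in advance, so a hairpin of other letters would have been missed. A match was found in 46 members and not in the other 21, beginning between 22 and 59 bases after the stop codon (median 32). There were 8 forms, given here because they separate the classes. Lower case marks the stem and capitals the loop, 5′ to 3′, in the DNA letters of the annotated transcripts.
Form of 26 genes of classes H1, H2A, H2B and H3: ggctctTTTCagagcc
Form of 7 H4 genes: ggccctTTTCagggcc
Form of 6 genes of classes H1, H2B and H3: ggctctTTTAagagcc
Form of Hist2h4 and Hist1h4i: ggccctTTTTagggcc
Form of Hist1h4b and Hist1h4j: ggtcctTTTCaggacc
Form of Hist1h4a: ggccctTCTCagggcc
Form of Hist1h3g: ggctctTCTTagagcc
Form of Hist2h2ac: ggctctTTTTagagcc
All 12 H4 members with a match had a stem of another sequence than the 34 members of the other classes. No form was shared between H4 and another class.

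Library totals were 30660511 to 48223718 expected counts. Of the counts on annotated genes, the 67 histone genes held 0.058%, 0.0631%, 0.0641% and 0.0658% in replicates 1 to 4. Exact binomial 95% intervals of these shares, which cover counting error only, ran from 0.0571% to 0.0588% in replicate 1 and from 0.0651% to 0.0666% in replicate 4, and these did not overlap. Macrophage markers were high (10 of 10 above 1 TPM), whereas 0 of 10 granulocyte and progenitor, 0 of 7 erythroid, 0 of 8 T and B cell and 0 of 7 fibroblast markers were above it, many of them with too few counts to test and some, such as Hbb-bs, Hbb-bt and Pdgfra, listed at 0. Of the osteoclast list, 2 of 5 were above 1 TPM, Acp5 and Atp6v0d2. Summed levels per library were 7189 to 9923 TPM for the macrophage list and 1.22 to 2.31 TPM for granulocytes and progenitors. In bulk RNA, fewer cells in S phase and less histone mRNA per cell cannot be told apart.

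Most histone genes were above 1 TPM. TPM (a count per length of transcript, scaled to a fixed library total) summed over the 67 genes to 792, 675.3, 837.5 and 965.2 in replicates 1 to 4. Each gene was tested against a level of 1 TPM with limma on log2(TPM + 0.1), over all 16262 genes with at least 10 counts in the 4 libraries together. Of 63 histone genes tested, 52 were above 1 TPM (82.5%), with adjusted p-values from 1.48e-10 to 0.0413, and 3 were below it (4.76%). Over all genes tested, 58.2% were above and 35.1% below, and 71.4% of the 12604 protein-coding genes tested were above. The counts by class, model and cluster given below are to be read against these shares. The median histone gene tested stood at 6.64 TPM, against 2.72 TPM over all genes tested.
Of the 52, 51 exceeded 1 TPM in each of the 4 libraries, the exception being Hist1h3d. Another 8 could not be placed on either side, and 4 had too few counts to test. The 5 genes with the highest means held 35.8% of the summed histone TPM, and 22 genes had a mean of at least 10 TPM.

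**Figure D1:**
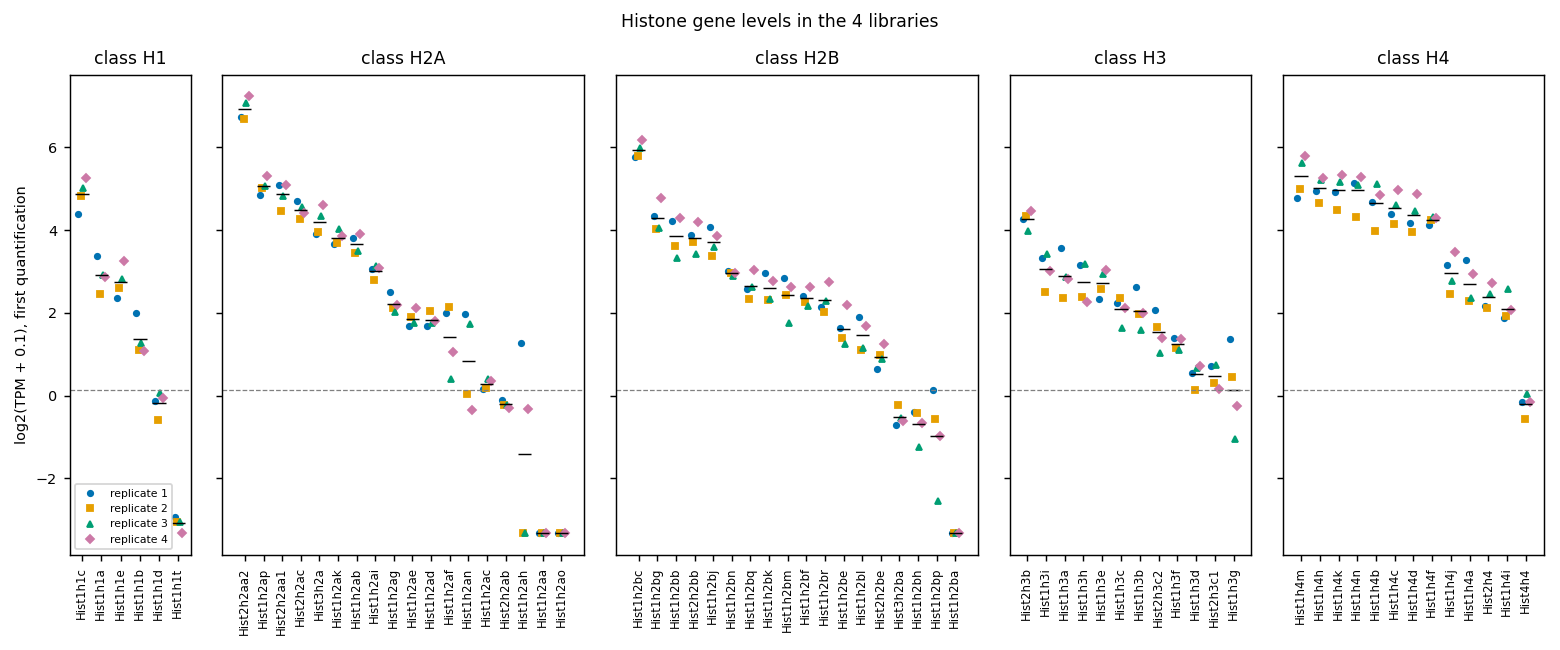
Level of each of the 67 histone genes in the 4 libraries, as log2(TPM + 0.1) of the first quantification, by class and in falling order of the mean. Points are libraries, black bars the mean of the 4 and the dashed line 1 TPM; most genes of every class lie above the line, and 3 genes lie at 0 in every library.

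Near the threshold, the 3 members just above a mean of 1 TPM were Hist2h3c1 (1.31 TPM ± 0.279, SD, n = 4), Hist1h3g (1.22 ± 0.917) and Hist1h2ac (1.11 ± 0.102). The 3 just below it were Hist1h1d (0.795 ± 0.167), Hist4h4 (0.772 ± 0.144) and Hist2h2ab (0.762 ± 0.045). None of these 6 passed the test in either direction.

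Among the 6 linker histone genes, 5 were tested, 4 of them were above 1 TPM, and 1 gene led the class. Hist1h1c, which encodes the somatic linker histone H1.2, stood at 20.9, 28.2, 32.3 and 38.1 TPM in replicates 1 to 4 (mean 29.9 ± 7.22, SD, n = 4). It held 62.6% of the H1 total and was far above the level of 1 TPM in every library (log2 difference 4.73 ± 0.15, SE, limma adjusted p = 6.39e-10). It lies on the plus strand at chr13:23738808-23740367 of mm10.
Hist1h1a and Hist1h1e, 2 further somatic variants, had nearly equal means, 7.58 ± 2.03 and 6.85 ± 1.91 TPM. They were ordered differently across libraries: Hist1h1a read 10.3, 5.42, 7.41 and 7.18 TPM, and Hist1h1e 4.99, 5.98, 6.98 and 9.45 TPM. Hist1h1e overlaps Hist1h2be on the same strand, so their reads are uncertain. Hist1h1a was thus highest in replicate 1, where Hist1h1e was lowest, and their ranges overlapped. Hist1h1b read 3.86, 2.06, 2.31 and 2.01 TPM, with replicate 1 apart from the others.
Hist1h1d, with the longest model of all members (7425 bases), had 372 counts per library on average but only 0.795 TPM. The testis gene Hist1h1t had 1 count in each of replicates 1 to 3 and 0 in replicate 4, and was not tested.

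Of 18 H2A genes, 16 were tested and 12 of these were above 1 TPM, a share near the 71.4% of protein-coding genes tested. The highest member of all classes was among them. Hist2h2aa2 stood at 106.8, 103.4, 135.9 and 150.8 TPM, a mean of 124.2 ± 22.9 (SD, n = 4), and the 4 libraries lay within a factor of 1.46. Its neighbour Hist2h2aa1, which shares its sequence, stood at 34.02, 21.99, 28.33 and 34.3 TPM (mean 29.7 ± 5.81). Together they summed to 141, 125.3, 164.2 and 185.1 TPM, or 153.9 ± 26.2. They lie on chromosome 3, at chr3:96239749-96240276 and chr3:96245497-96246082. The division of reads between them is a matter of estimation, since Hist2h2aa2 had no stretch of 31 bases of its own.
Hist1h2ap followed at 28.6, 32.3, 33.3 and 39.7 TPM (mean 33.5 ± 4.62), whereas its near copy Hist1h2ao was listed at 0 counts in each library. Hist1h2ao shares 93.8% of its 31-base stretches with Hist1h2ap. Hist2h2ac (22.5 ± 2.93 TPM), Hist3h2a (18.7 ± 4.49), Hist1h2ak (14.0 ± 1.72) and Hist1h2ab (12.7 ± 2.03) also exceeded 10 TPM. Hist1h2ai, Hist1h2ag, Hist1h2ae, Hist1h2ad and Hist1h2af were above 1 TPM at means from 8.04 down to 2.87 TPM.
The least even members of the class were low in counts. Hist1h2an read 3.82, 0.92, 3.19 and 0.68 TPM, a 5.62-fold range on 23.3 counts per library, and was not placed (adjusted p = 0.0751, limma). Hist1h2af read 3.91, 4.34, 1.23 and 1.98 TPM, a 3.53-fold range, and passed the test (adjusted p = 0.00106, limma). Hist1h2ah was listed at 2.3, 0, 0 and 0.7 TPM. Hist1h2aa, a testis gene, had no counts. A limit of 3 counts in a library corresponds to 0.365 TPM of this gene in replicate 1 and 0.23 TPM in replicate 3.

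Of 18 H2B genes, 17 were tested, 14 of them above and 3 below 1 TPM. Hist1h2bc led with 54.2, 55.53, 62.99 and 71.87 TPM (mean 61.1 ± 8.13, SD, n = 4), was the member with the most counts (3709 per library) and had the smallest spread of all members, a biological coefficient of variation of 0.124. It held 36.3% of the H2B total (log2 difference from 1 TPM 5.79 ± 0.13, SE, limma adjusted p = 1.48e-10). Its gene spans chr13:23684199-23692908, and its first model is spliced.
Next were Hist1h2bg (20.16, 16.22, 16.54 and 27.35 TPM, mean 20.1 ± 5.17), Hist1h2bb (15.0 ± 4.74), Hist2h2bb (14.1 ± 3.14) and Hist1h2bj (13.3 ± 2.81). Hist1h2bn was the most even in TPM, at 7.92, 7.76, 7.27 and 7.68 TPM, a 1.09-fold range. Hist1h2bq, Hist1h2bk, Hist1h2bm, Hist1h2bf, Hist1h2br, Hist1h2be, Hist1h2bl and Hist2h2be were above 1 TPM at means from 6.25 down to 1.83 TPM.
The 3 members below 1 TPM were all H2B genes: Hist3h2ba (0.602 ± 0.11 TPM, adjusted p = 0.00485), Hist1h2bh (0.54 ± 0.158, adjusted p = 0.00325) and Hist1h2bp (0.512 ± 0.382, adjusted p = 0.0184), by limma. Hist1h2bp read 0.99, 0.58, 0.07 and 0.41 TPM. Leaving out replicate 2 (adjusted p = 0.0647, limma) or replicate 4 (adjusted p = 0.105) ended its call. With TPM rescaled to a fixed total of protein-coding genes, none of the 3 was below 1 (means of 2.02, 1.79 and 1.69), so these 3 calls depend on the scale. The testis H2B gene Hist1h2ba was listed at 0 counts in each library.

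Of 12 H3 genes, 10 were above 1 TPM, at lower levels than those of most H4 genes. Hist2h3b led with 19.3, 20.1, 15.8 and 21.8 TPM (mean 19.2 ± 2.53, SD, n = 4) and held 29.0% of the H3 total. Hist1h3i (8.53 ± 2.26 TPM), Hist1h3a (7.71 ± 2.82), Hist1h3h (6.88 ± 2.29) and Hist1h3e (6.64 ± 1.51) came next, and their ranges over the libraries overlapped. Hist1h3a read 11.7, 5, 7.18 and 6.97 TPM, and was highest in replicate 1. Hist1h3e read 4.95, 5.82, 7.62 and 8.17 TPM and was lowest there.
Hist1h3c, Hist1h3b, Hist2h3c2, Hist1h3f and Hist1h3d stood at means from 4.21 down to 1.34 TPM. Hist1h3d was the nearest to the threshold of all genes called above it (log2 difference 0.37 ± 0.16, SE, limma adjusted p = 0.0413). It lost the call without replicate 1 (adjusted p = 0.0784, limma), replicate 3 (0.149) or replicate 4 (0.104). Hist1h3g read 2.48, 1.26, 0.38 and 0.74 TPM, the widest range of any member with a mean of at least 1 TPM (6.53-fold), on 22.1 counts per library.

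H4 had the highest typical level by TPM, and 12 of 13 genes were above 1 TPM. The class median was 21.1 TPM, against 4.06 for H2A, 5.26 for H2B, 4.19 for H3 and 4.71 for H1. By counts, which are not scaled for length, the median H4 gene (304.7 per library) did not exceed the median H1 gene (310). H4 genes encode 1 and the same protein, from 12 distinct coding sequences here. Hist1h4m read 27.5, 31.7, 49.1 and 55.7 TPM (mean 41.0 ± 13.6, SD, n = 4), Hist1h4h 30.7, 25.3, 37.0 and 38.6 TPM, Hist1h4k 30.04, 22.52, 35.52 and 40.16 TPM and Hist1h4n 35.4, 19.8, 34.1 and 38.8 TPM. The order among these 4 changed from library to library, and replicate 4 was the highest in each. They were followed by Hist1h4b (26.3 ± 7.98 TPM), Hist1h4c (23.4 ± 5.82), Hist1h4d (21.1 ± 6.09) and Hist1h4f (18.8 ± 1.13).
No member dominated: Hist1h4m held 16.2% of the class total. A second tier of Hist1h4j, Hist1h4a, Hist2h4 and Hist1h4i stood at means from 7.95 down to 4.28 TPM. Hist4h4, alone on chromosome 6 (chr6:136801553-136804415), was not placed on either side of 1 TPM (0.79, 0.58, 0.93 and 0.79 TPM).

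Summed by class, H2A held 34.6% ± 0.991 (SD, n = 4) of the histone TPM, H4 30.6% ± 2.75, H2B 20.7% ± 1.86, H3 8.23% ± 1.28 and H1 5.84% ± 0.469. The classes stood in this order in 4 of 4 libraries. H2A and H4 shares came close (35.1% and 33.4% in replicate 3). H3 took 9.75% in replicate 1 and 6.85% in replicate 4.
By counts, which are not scaled for length, the order was another one: H2A 29.9% ± 0.549, H2B 25.1% ± 1.55, H4 21.8% ± 1.83, H1 16.2% ± 1.35 and H3 6.98% ± 1.2, again in 4 of 4 libraries. H1 gene models are longer (median 1236 bases, against 528 over all members), and H1 held a larger share of the counts than of the TPM. No test was made on these shares. In a nucleosome the 4 core histone proteins occur in equal number, but these sums are of RNA and do not measure protein. H3 members stood at 66.4 TPM ± 7.78 in sum, against 252.5 ± 55.4 for H4. The H3 sum leaves out the replacement genes H3f3a and H3f3b, at 472.4 TPM ± 79.5 together, and both sums depend on model length.

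**Figure D2:**
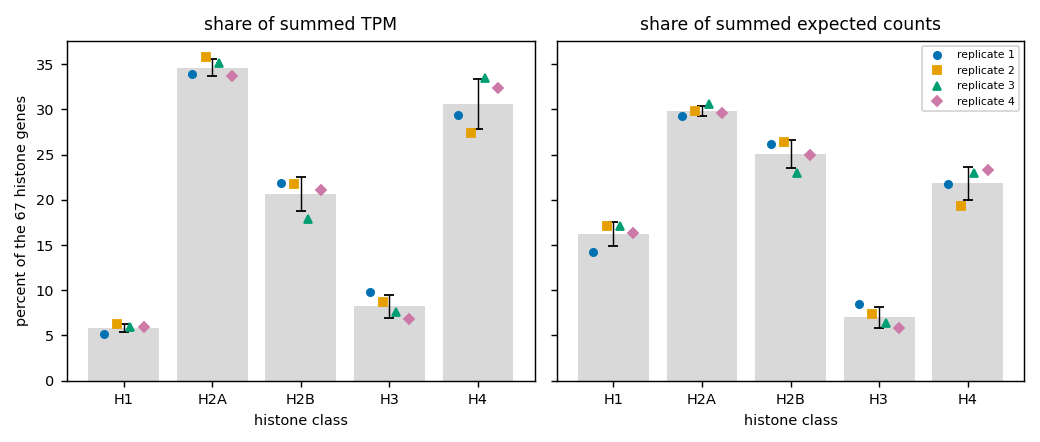
Share of each histone class in the summed TPM (left) and the summed expected counts (right) of the 67 genes, in percent. Bars are means of the 4 libraries with SD and points single libraries; H2A is first in both, H4 follows by TPM with 30.6% and comes after H2B by counts with 21.8%, and H1 rises from 5.84% of TPM to 16.2% of counts.

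The replacement histones, most of them made throughout the cell cycle from ordinary polyadenylated mRNA, differed by family. H3f3a and H3f3b, the genes of H3.3, stood at 266.5 ± 45.8 and 205.9 ± 33.8 TPM (SD, n = 4). Summed, they exceeded the 12 H3 members together 6.45, 6.76, 6.62 and 8.66-fold in replicates 1 to 4 on the TPM scale. For H2A the ratio was on the other side: the 18 members summed to 5.63 ± 0.699 times the TPM of H2afz and H2afx (genes of H2A.Z and H2A.X) together, and to 2.7 ± 0.162 times when H2afy, H2afy2, H2afj and H2afv were added. The 6 H1 members summed to 2.07 ± 0.271 times the TPM of H1f0, the linker histone of resting cells (18.05, 23.2, 21.32 and 31.02 TPM).
Of the 11 replacement histones measured, 8 were above and 2 below 1 TPM, a share near the 71.4% of protein-coding genes above it. H2afz stood at 45.9 ± 5.72 TPM and H2afx at 4.5 ± 0.403. Cenpa, the centromeric H3, stood at 1.25 ± 0.335 TPM and was not placed.

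How a gene is annotated at its 3′ end differs widely among the members, and TPM depends on it. Of the 67 lowest-numbered coding models, 65 have a single exon. In 23, the model ends near the stem-loop, 3 to 74 bases after it. In another 23 it runs past the stem-loop by 108 to 4884 bases. In 19 it stops short, at most 48 bases after the stop codon and without a stem-loop match. The last 2, Hist1h2bc and Hist2h2be, have long ends (742 and 2192 bases) in which these letters were not found.

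**Figure D3:**
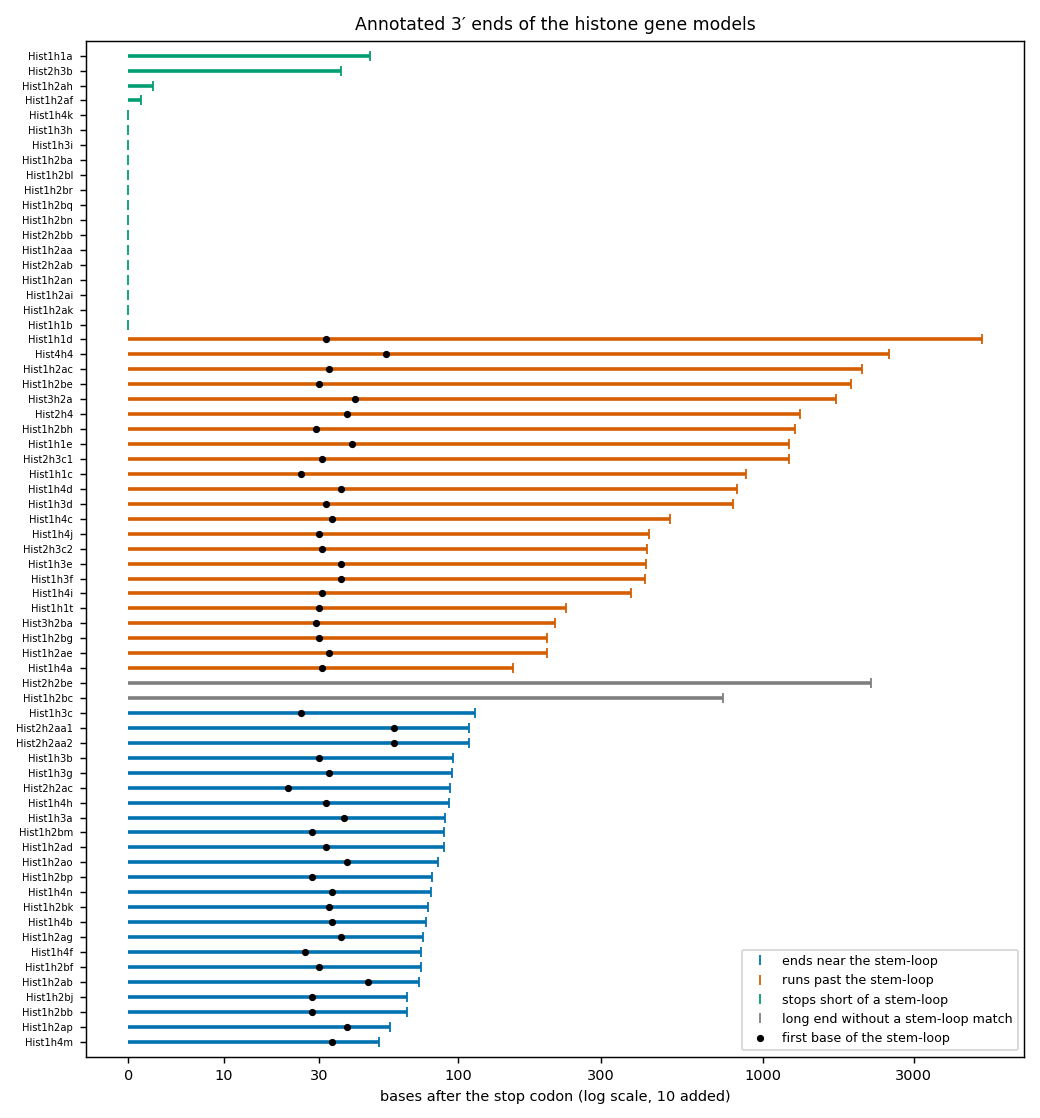
Annotated 3′ end of the lowest-numbered coding transcript of each histone gene, in bases after the stop codon on a log scale with 10 added; black points mark the first base of the stem-loop. Models of 19 genes stop within 48 bases, 23 end 3 to 74 bases past the stem-loop and 23 run on by 108 to 4884 bases.

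The 23 models that run past the stem-loop held 45.7% ± 1.94 (SD, n = 4) of the histone counts and 20.6% ± 1.46 of the TPM. The 23 that end near it held 30.8% ± 1.3 of the counts and 54.3% ± 0.913 of the TPM, and the 19 that stop short 7.5% ± 0.891 and 17.3% ± 1.23. The files give reads per gene or transcript and not per base, so how many of these reads lie beyond the stem-loop was not analysed here.
Of the 10 members with the highest counts, 6 were also among the 10 highest by TPM. Hist3h2a, with a model of 2146 bases, ranked 4 by counts (2346 per library) and 17 by TPM. Hist1h4k, whose model of 312 bases holds the coding part alone, had 208.1 counts and 32.1 TPM, nearly the level of Hist1h4h with 532.5 counts.
Above 1 TPM were 20 of 22 genes tested whose models end near the stem-loop, 16 of 22 that run past it and 14 of 17 that stop short. Over all genes tested the share was 58.2%, and over the protein-coding ones 71.4%, near that of the models that run past. Median levels, untested members included, were 12.7, 3.55 and 6.25 TPM.

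Several members could be told apart only in part, because their sequences repeat one another. Counted over all annotated transcripts, the median member had 41.1% of its stretches of 31 bases in no other gene. H1 genes were the most distinct (median 96.3%) and H2A genes the least (25.1%). Hist2h2aa2, Hist1h2bq, Hist1h2br and Hist2h3c1 had none of their own in their first coding model. The posterior standard deviation that the quantification gives with each count followed this: it was 11% of the count in the median of the 10 tested members with under 10% of such stretches, and 0.171% in the 20 with at least 60%.
Hist1h2bq and Hist1h2br each contain a single-exon transcript of 381 bases, and these had the same TPM in every library (4.32, 3.92, 4.81 and 6.57). Their posterior standard deviations were 39.6% and 43.9% of the count. The pair is better read as a sum, 11.2 ± 2.53 TPM. Likewise Hist1h4m and Hist1h4n summed to 73.0 ± 19.4 TPM and Hist1h3h and Hist1h3i to 15.4 ± 4.39 TPM.
Hist2h3c1 lies wholly within the sequence of Gm20634, a processed transcript that stood at 2.04, 3.07, 3.49 and 4.48 TPM and also holds all such stretches of Hist2h2aa2. The read-sharing uncertainty of these genes is not part of the SD over libraries given above.

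The second quantification of the same reads gave lower TPM for nearly all genes, with a median log2 difference of 1.40 over the 10323 genes compared and 1.46 over the 57 histone genes among them. Against a difference of 1 on the log2 scale (limma treat), 2 of 57 histone genes were higher in the first quantification and 0 in the second, where 4.22% and 2.22% of all genes compared were called. Without adjustment 33 and 1 of the 57 had a p below 0.05. The unadjusted share of all genes is not given here. Their median of 1.40 already exceeds the tested difference of 1, so the 33 are not read as particular to histone genes. The 2 were Hist2h3c1 (log2 difference 3.34 ± 0.26, SE, adjusted p = 2.4e-18) and Hist2h2aa2 (1.71 ± 0.26, adjusted p = 0.0477), both higher in 4 of 4 libraries. In the second quantification Hist2h3c1 was listed at 0.249, 0, 0 and 0 TPM, so the size of its difference depends on the 0.1 TPM added before the log2. The SE was 0.26 for every histone gene compared in this fit. It is a variance pooled over genes, so these p-values do not measure the spread of the single gene. Without replicate 3, or without replicate 4, Hist2h2aa2 was no longer called.
With both quantifications rescaled so that protein-coding genes summed to the same total in each library, the median over all 14108 genes compared was −0.05 and over 63 histone genes 0.06. None of the 63 was then called in either direction (smallest adjusted p = 0.209, limma treat, with 1 in each direction at an unadjusted p below 0.05), where 0.858% of all genes were called higher in the first and 3.3% in the second. For 51 of 63 the difference was within 0.3 on the log2 scale.
The widest gaps were those of 2 genes with few stretches of their own. On the rescaled scale Hist2h3c1 stood at 4.31 ± 1.08 in the first and 0.444 ± 0.889 in the second, where replicates 2 to 4 were listed at 0. Hist1h2ah stood at 2.29 ± 3.43 and 10.6 ± 8.49. Among genes whose models stop short of a stem-loop, 11 of 17 were lower in the first quantification, with a median log2 difference of −0.26. The median over all genes compared was −0.05. Lower in the first were also 8 of 22 genes whose models end near the stem-loop (median 0.10) and 4 of 22 whose models run past it (median 0.06). Of the genes that stop short, Hist1h2ak (46.0 against 82.8) and Hist1h4k (102.9 against 161.8) had the widest gaps of those above 10 TPM. Class shares moved little, H2A taking 34.7% and H4 31.2% of the histone TPM in the second quantification.

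**Figure D4:**
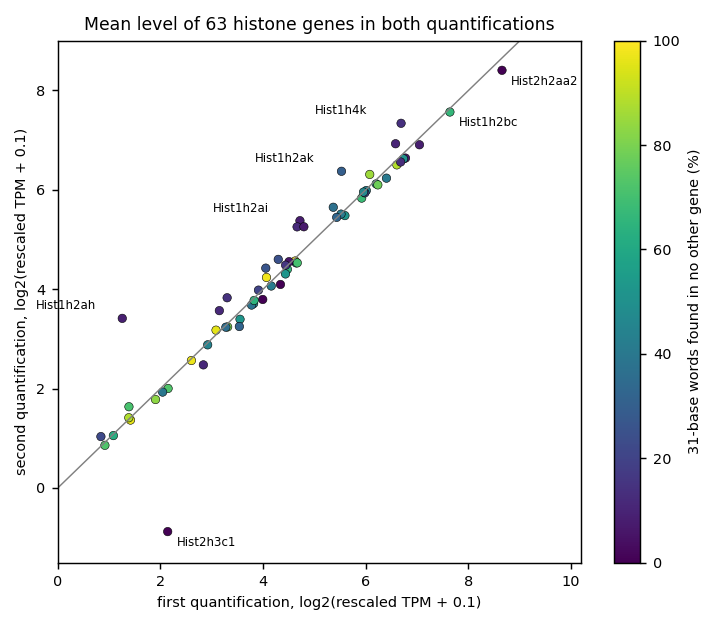
Mean level of 63 tested histone genes in the first (x) and second (y) quantification, as log2(rescaled TPM + 0.1), coloured by the percentage of 31-base stretches found in no other gene; the grey line marks equal values. Most points lie on the line; Hist2h3c1 (4.31 against 0.444) and Hist1h2ah (2.29 against 10.6) lie farthest from it.

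The genes lie in clusters, and all large clusters were represented. The largest block, chr13:23531050-23764406, held 29 members, 24 of them above 1 TPM, and 40.4% of the histone TPM. The 10 members of the chromosome 3 cluster (chr3:96219865-96270132) held 27.1%, 18 members at chr13:21715763-21837530 held 26.4% and 5 members at chr13:22035164-22043676 held 3.54%. On chromosome 11, Hist3h2a and Hist3h2ba together held 2.36%. The outlying testis pair Hist1h2aa and Hist1h2ba, at chr13:23933773-23934851, was at 0 counts in each library.
Within clusters, 12 pairs of an H2A and an H2B gene start head to head, 176 to 306 bases apart. By TPM, H2B was higher in 6 pairs and H2A in 5, and 6 pairs differed over 4-fold. Such gaps can depend on model length and on how reads are divided between near copies. Hist2h2ac and Hist2h2be, at 22.5 and 1.83 TPM on models of 520 and 2620 bases, had 430.5 and 285.5 counts per library. The 6 also include Hist1h2bk with Hist1h2ah, which had 7.2 counts per library. Another is Hist1h2bq with Hist1h2ao, which was listed at 0 beside its near copy Hist1h2ap. The widest gap between 2 detected genes was that of Hist1h2bc (61.1 TPM) from Hist1h2ac (1.11 TPM), whose starts lie 251 bases apart and whose models are 1156 and 2482 bases long. In counts, the gap was 3709 against 163.9 per library. The pair Hist1h2bf and Hist1h2ad was the nearest to even, at 5.07 and 3.46 TPM.

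Promoters are shown because the shared starts of such pairs place the elements of 2 genes in 1 stretch. RefSeq windows (GRCm38.p6) from 250 bases before to 50 after the start were matched for 61 of 67 members, and 4 motifs were searched on both strands, with no overlap between matches of different motifs: the CCAAT box, the TATA box as TATAAA, the octamer as ATTTGCAT and the H1 box as AAACACA. Upstream stretches of 3 members follow, 5′ to 3′ on the strand of the gene and ending at the base before its start, with motif matches on either strand in capitals.
Hist1h1c, chr13:23738647-23738806, plus strand: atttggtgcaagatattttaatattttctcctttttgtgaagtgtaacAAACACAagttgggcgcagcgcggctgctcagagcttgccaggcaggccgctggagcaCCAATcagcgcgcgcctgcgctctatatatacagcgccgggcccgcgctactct
Hist1h2ac, chr13:23683960-23684159, minus strand: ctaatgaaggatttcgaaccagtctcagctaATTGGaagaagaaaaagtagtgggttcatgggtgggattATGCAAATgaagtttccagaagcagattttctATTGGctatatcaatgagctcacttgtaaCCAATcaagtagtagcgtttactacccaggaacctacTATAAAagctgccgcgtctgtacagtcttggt
Hist1h2bg, chr13:23571240-23571399, plus strand: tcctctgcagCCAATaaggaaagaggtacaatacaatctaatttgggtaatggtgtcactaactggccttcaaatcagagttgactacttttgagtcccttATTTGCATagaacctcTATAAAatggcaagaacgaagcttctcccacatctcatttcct
In Hist1h1c the H1 box begins 112 and CCAAT 54 bases before the start. The Hist1h2ac stretch, which it shares with Hist1h2bc, holds 3 CCAAT matches, 169, 98 and 69 bases before the start, the octamer at 130 and TATAAA at 32. In Hist1h2bg the octamer begins 59 bases before the start.
CCAAT was present in 6 of 6 H1, 18 of 18 H2A, 15 of 15 H2B and 10 of 10 H3 windows, but in 3 of 12 of H4, against 37.4% of all 32851 windows. The octamer was in 7 H2A and 6 H2B windows and in no other class, against 1.74% of all windows. Windows of head-to-head genes overlap, so 1 match can count for both genes, as does the octamer of Hist1h2ae and Hist1h2bg. The H2A and H2B counts are therefore of windows and not of separate sites. The H1 box was in 5 of 6 H1 windows, against 7.18% of all, and TATAAA in 35 of 61 members' windows, against 13.6%. These matches are letters in a window and not measured binding. RefSeq and the annotation placed the start within 10 bases of each other for 29 of the 61, and over 50 bases apart for 10.

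Whether the spread between libraries was wider for histone genes than for genes at large depended on the genes compared. The median biological coefficient of variation (edgeR, expected counts rounded) was 0.244 over 63 histone genes and 0.206 over all 16262 genes. Without a filter on low counts the medians were 0.248 and 0.442, and in the second quantification 0.297 and 0.44, with the histone genes lower in both. It ranged from 0.124 in Hist1h2bc to 1.44 in Hist1h2ah, and the 5 members above 0.5 (Hist1h2af, Hist1h2an, Hist1h2ah, Hist1h2bp and Hist1h3g) had at most 32.2 counts per library. By class, the medians were 0.186 for H1, 0.215 for H4, 0.232 for H2A, 0.272 for H2B and 0.289 for H3.
Libraries differed in how much of their TPM lay on protein-coding genes (253073 in replicate 2 to 366427 in replicate 4). With TPM rescaled to these genes, the histone sum was 2497, 2668, 2794 and 2634 in replicates 1 to 4, so replicate 4, the highest in deposited TPM, was no longer so.
On that scale, the medians of replicate 1 differed by model, and also by class. Of the 20 genes above 1 TPM whose models end near the stem-loop, 10 were highest and 4 lowest in replicate 1, and 0 were highest in replicate 4. Summed, the 23 genes with models ending near the stem-loop were nonetheless lowest in replicate 1 (1374, 1423, 1542 and 1417 in replicates 1 to 4). Of the 16 whose models run past it, 2 were highest and 8 lowest in replicate 1. The median deviation of replicate 1 from the mean of the 4 was 0.12 (log2) for the first set, 0.01 for the 14 that stop short and −0.21 for the 16 that run past. For TMM-scaled counts the values were 0.14, 0.01 and −0.15. By class, on the rescaled scale, the median deviation of replicate 1 ran from −0.15 in H4 to 0.15 in H3. These are descriptions of 1 library against the other 3, and no test was made.

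**Figure D5:**
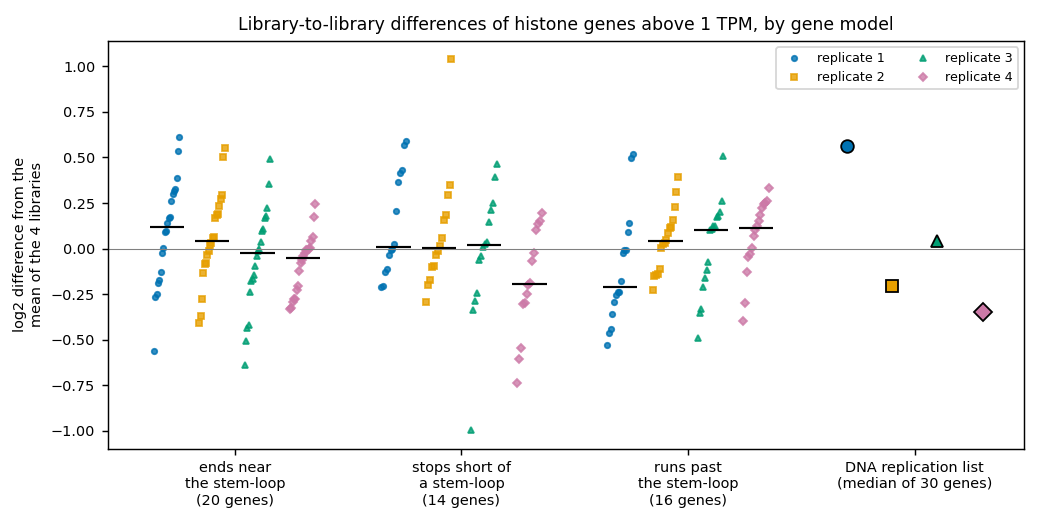
Deviation of each library from the mean of the 4, as log2 of TPM rescaled to protein-coding genes plus 0.1, for histone genes above 1 TPM by gene model, and as the median of 30 DNA replication genes. Small points are genes and bars their median; in replicate 1 the median is 0.12 for models ending near the stem-loop, −0.21 for models running past it and 0.56 for the DNA replication genes.

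Other values also differed in replicate 1. DNA replication genes (a list of 40, 30 of them above and 3 below 1 TPM, median 2.31 TPM) summed on the rescaled scale to 1001, 595.3, 702.2 and 572.8 in replicates 1 to 4, and 35 of the 40 were highest in replicate 1. Pcna, the replication clamp, read 107, 56.7, 67.9 and 78.0 TPM, and Rrm2, a subunit of the enzyme that makes deoxyribonucleotides, 2.76, 1.32, 1.24 and 1.2 TPM. Mcm6, of the replicative helicase, read 24.3, 8.09, 15.5 and 12.9 TPM. Dnmt1, the maintenance DNA methyltransferase, was highest in replicate 3 instead, at 39.1, 33.1, 43.9 and 33.8 on the rescaled scale. Mki67, a proliferation marker, stood at 3.17 ± 0.518 TPM and showed no such excess in replicate 1 (3.08 TPM).
The nucleus-retained RNAs moved the other way: Malat1 read 55.7, 719.3, 416.2 and 295.2 TPM and Neat1 9.62, 41.2, 31.7 and 21.1 TPM, both lowest in replicate 1. Of that list of 4, 2 were above and 1, Kcnq1ot1 (0.11 ± 0.13 TPM), below 1 TPM. The part of replication, or of nuclear RNA, in the histone values of replicate 1 was not tested. Without replicate 1, 51 histone genes were above and 3 below 1 TPM.

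The counts of related genes above 1 TPM are to be read against 58.2% of all genes tested and 71.4% of the protein-coding ones. Of 21 genes of 3′ end formation and decay of histone mRNA, 18 were above and 2 below 1 TPM, with a median of 8.91 TPM. Slbp stood at 10.3, 6.55, 8.71 and 10.1 TPM (mean 8.91 ± 1.72, SD, n = 4). Lsm10, of the U7 snRNP that directs cleavage, stood at 13.6 ± 2.8 TPM, whereas its partner Lsm11 was below 1 TPM (0.64 ± 0.0744). Tut7, a terminal uridylyltransferase, was the highest of the list (35.8 ± 9.61 TPM), followed by Sympk (24.1 ± 3.78), a scaffold of the cleavage complex, and Mif4gd (15.2 ± 4.07), which binds Slbp in translation. Npat, the coactivator of histone gene transcription, stood at 2.29 ± 0.41 TPM and Casp8ap2, of the same nuclear bodies, at 3.58 ± 0.88.
Of 21 histone chaperones measured, 19 were above 1 TPM and 0 below, with a median of 9.36 TPM. The highest were Npm1 (70.8 ± 11.2 TPM), Daxx (54.2 ± 22.3), a chaperone of H3.3, and Nap1l1 (29.5 ± 5.34). Daxx read 44.0, 41.2, 44.0 and 87.5 TPM, with replicate 4 apart.
Of the mitotic genes, 4 of 22 were above and 10 below 1 TPM, with a median of 0.777 TPM. Tpx2 (6.35 ± 3.83 TPM), Cdk1 (6.04 ± 2.03) and Top2a (3.9 ± 1.05) led. Of 15 genes of cell cycle exit, 13 were above and 2 below 1 TPM, led by Cdkn1a (85.7 ± 18.2 TPM), which encodes the CDK inhibitor p21, E2f4 (13.3 ± 2.32) and Rb1 (12.5 ± 1.81).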

How the data were processed

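Total RNA of the cytosolic fraction was sequenced in 4 libraries of 1 group. Per the file headers, the deposited gene tables give expected counts, TPM and posterior means and standard deviations, and the second transcript tables give estimated counts and TPM. Per the notes deposited with each library, the build was mm10 with GENCODE M21, the first quantification came from a transcriptome alignment and the second from the reads. No source used here names the aligner or the quantifier. All deposited TPM sum to a fixed total, so they are relative values, and the authors' other columns were not used.

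The members and gene lists were chosen with earlier results of these data known. Ars2, Zcchc6, Zcchc11 and Supt16h were not found by these names and not used here. Levels were tested with limma 3.58.1 (intercept, variance trend, one-sided against 1 TPM, log2(TPM + 0.1), genes with summed expected counts of at least 10). The 2 quantifications were compared with limma treat (log2 difference of 1, genes of at least 1 TPM in either). P-values were Benjamini-Hochberg adjusted over all genes tested, with calls at 0.05. The coefficient of variation came from edgeR 4.0.16 (TMM, estimateDisp) on expected counts rounded to whole numbers, with DESeq2 1.42.0 as an alternative. The fits were tested on simulated data in R 4.3.3. Model ends, stem-loops and shared stretches of 31 bases came from the GENCODE M21 transcripts, on the same strand, in Python 3.11.15.

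Depth was 30660511 to 48223718 expected counts per library. A count of 0 allows 3 counts, or 0.0622 to 0.0978 CPM. No molecular identifiers were counted, so reads can be copies of 1 molecule, and intervals and limits cover counting error only. No source used here states whether strand was used in counting, so genes that overlap on opposite strands are uncertain, as are those that overlap on 1 strand, such as Hist1h2be and Hist1h1e.

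Members named are those with a mean of at least 1 TPM, the highest of each class, 3 on each side of 1 TPM, those called different between quantifications and those with a range of at least 3-fold. Of the lists, the 3 highest genes and 17 fixed by name are given. Other genes were named after their values were seen. Alternatives were other pseudocounts, filters, scalings, lengths and quantifications, and leaving out each library.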

Additional observations from a re-analysis of the deposited data

Results flagged for a closer look

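Among 70 values examined over the 4 libraries (each histone gene with a mean of at least 1 TPM, the class shares, the list sums and the histone totals), 2 had 1 library far from the other 3 by Dixon's ratio at the 95% level (0.838 and 0.912). Chance gives about 1 such case in 20. Hist1h1b stood at 3.86 TPM in replicate 1, against 2.06, 2.31 and 2.01 TPM in the others. The summed mitosis genes stood at 122.1 (TPM rescaled to protein-coding genes) in replicate 1, against 94.9, 92.7 and 95.3. Both flags fall on replicate 1, but on different scales. Rescaled to protein-coding genes, Hist1h1b read 12.2, 8.14, 7.71 and 5.49 in replicates 1 to 4. In deposited TPM, the mitosis sum read 38.7, 24.0, 27.8 and 34.9. On these scales replicate 1 was still the highest, but neither value was flagged.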

How the results depend on the processing

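The count of histone genes above 1 TPM was 52 and lay between 40 (second quantification) and 61 (rescaled to protein-coding genes) under the alternatives tried, and between 51 and 53 without any 1 library. The 3 genes below 1 TPM became 5 with a pseudocount of 1 or with posterior means, 0 when rescaled to protein-coding genes or with counts over annotated length, 11 in the second quantification and 1 in the second quantification rescaled, and 2 to 3 without any 1 library. Over all genes, 5712 were below in the main fit, 3453 when rescaled and 12231 in the second quantification, which was filtered on its own counts. These shifts are thus not read as particular to histone genes. Hist3h2ba, Hist1h2bp and Hist1h2bh changed sides to 2.02, 1.69 and 1.79 when rescaled and to 1.98, 1.95 and 1.71 in the second quantification rescaled, and Hist1h2bh to 1.02 with counts over annotated length. In the second quantification as deposited, Hist2h2be, Hist1h3d and Hist1h3f, all called above 1 TPM, changed sides to 0.643, 0.434 and 0.833 TPM, of which Hist1h3f was not called below. Of genes not called in the first, Hist2h3c1, Hist1h2ac and Hist1h3g were called below there, at 0.0621, 0.369 and 0.459 TPM, and Hist1h2an stood at 0.637. Rescaling multiplies every gene of a library by 1 factor. For the other settings the cause was not tested.

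The 2 genes higher in the first quantification became 9 with a pseudocount of 1, 21 among genes of at least 5 TPM, 36 with a variance trend, 56 against a difference of 0 and 0 when rescaled, and 1 to 2 without any 1 library. Shares of all genes under these settings are not given here. Over all genes the median log2 difference was already 1.40, so these counts are not read as a histone trait. The count higher in the second was 0, 1 against a difference of 0 (Hist1h2ah) and 0 to 1 without any 1 library. With counts over annotated length, the H1 share was 8.11% and the H4 share 27.2%, the other classes moving by less than their SD. Without any 1 library, H1 lay at 5.7% to 6.06%, H2A at 34.3% to 34.9%, H2B at 20.3% to 21.6%, H3 at 7.72% to 8.68% and H4 at 29.7% to 31.7%. The median coefficient of variation was 0.219 with DESeq2, 0.297 in the second quantification and 0.219 to 0.269 without any 1 library. Over all genes it was 0.206, but 0.442 without a filter on low counts (0.248 for histone genes) and 0.44 in the second quantification, so the order of histone genes and all genes turned. No paired analysis was possible because all libraries belong to 1 group. The 5 histone genes with a coefficient of variation above 0.5 had at most 32.2 counts per library, while others with as few counts, such as Hist2h2ab (11.0 counts, 0.423), lay below 0.5.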

Other observations

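The 3 genes of the name pattern without a coding transcript were low. Hist3h2bb-ps, a pseudogene, read 2.52, 2.14, 1.38 and 1.9 TPM, above the coding gene Hist3h2ba (0.602 TPM ± 0.11, SD, n = 4) in every library. Hist1h2aj was listed at 0 counts in each library, and Hist1h2al had 3.24 expected counts in replicate 2 and 0 in the others.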
